A study of Mus musculus with 12 samples.

Results

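Snai2, Pou3f2, Folh1, Fzd10, Pla2g3, Ccdc170, Tvp23a and Abca9 are 8 genes picked from the mouse cochlea, the inner ear's organ of hearing, because they were among those most reduced after noise. They are 8 of 35496 genes in the deposited count table and 8 of the 19497 tested, since all 8 passed the filter on low counts. The contrasts of each noise level with 70 dB chose them, so their values in those contrasts are given as a description with no test, and support nothing. The contrast between 105 and 94 dB was not itself used to choose them and is tested below. It is the difference between the contrasts that were used and shares their noise libraries. The choice can therefore shift it, and its calls are not independent of the choice.

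Cochlear RNA was sequenced in 3 groups of 4 libraries from FVB/NCrl mice, an inbred strain, on postnatal day 60. They were exposed to sound while awake, for 30 minutes at 70 dB SPL (sound pressure level; ambient sound, the control), 94 dB SPL or 105 dB SPL, and tissue was taken straight after. The labels name no genetic change and no drug in any group. Because the labels leave unsaid whether a library holds 1 animal or several, the p-values reflect how far these samples scatter, and that scatter may be technical.

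Library totals lay between 31141706 and 42317781 counts in the control group, between 32302796 and 38733490 in the 94 dB group and between 32057388 and 40239711 in the 105 dB group. Replicates 3 and 4 at 94 dB stood apart: mitochondrially encoded genes took 2.68% and 2.73% of their counts, against 3.53% and 3.59% in replicates 1 and 2, 4.43% to 5.35% at 105 dB and 5.08% to 5.68% at 70 dB. Haemoglobin genes took 2.90% and 2.95% there, against 1.75% and 2.07% in the other 94 dB libraries. Calls that change without them are given both ways. By edgeR's quasi-likelihood test at an adjusted p of 0.05, 5085 genes (26.1%) passed at 94 dB against 70 dB, 316 (1.62%) at 105 against 70 dB and 3372 (17.3%) at 105 against 94 dB. Without replicates 3 and 4 at 94 dB these counts were 1610 at 94 against 70 dB and 217 at 105 against 94 dB. The split at 94 dB was 2716 higher and 2369 lower, and with smooth GC and exon length trends taken out of each library 1984 higher and 1143 lower. At 105 dB it was 217 higher and 99 lower, and with upper-quartile scaling 189 and 135. Single libraries moved some counts: the 316 became 191 and 149 without 70 dB replicates 1 and 4 and 126 and 187 without 105 dB replicates 2 and 3, and the 3372 became 1650 and 1860 without 94 dB replicates 3 and 4 singly and 2057 and 1996 without 105 dB replicates 2 and 4.

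The 8 genes belong to different pathways. Snai2 (Slug) is a zinc-finger repressor that binds E-boxes and is known for epithelial-mesenchymal transition and neural crest and melanocyte development, and Pou3f2 (Brn2) is a POU-domain transcription factor of developing neurons and Schwann cells. Fzd10 is a frizzled receptor for Wnt ligands. Folh1 (glutamate carboxypeptidase II) cleaves the neuropeptide N-acetylaspartylglutamate (NAAG) and polyglutamated folates, and Pla2g3 is a secreted phospholipase A2, which frees fatty acids from membrane lipids. Abca9 belongs to the A family of ABC lipid transporters, Tvp23a is a Golgi membrane protein related to a yeast vesicle protein, and Ccdc170 is a coiled-coil protein of the Golgi and microtubules.

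The group mean of every one of the 8 genes was lower at both noise levels than at 70 dB, but the libraries separated less well at 94 dB. At 105 dB all 4 libraries lay below the lowest 70 dB library in 8 of 8 genes, a pattern that 5.03% of all tested genes share. At 94 dB this was so in 4 of 8 (Snai2, Pou3f2, Folh1 and Abca9), against 12.3% of all tested genes, and in 7 of 8 without replicates 3 and 4, against 17.2%. Since the choice of genes used these contrasts, nothing is read from these counts. The median log2 fold change over the 8 genes was -0.38 at 94 dB and -0.78 at 105 dB, where the median over all tested genes was -0.018 and -0.0039. In the ranking of all 19497 tested genes from the lowest log2 fold change upward, the 8 took places 138 (Snai2) to 5588 (Ccdc170) at 94 dB and 296 (Snai2) to 1886 (Abca9) at 105 dB.

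The group means of the 8 genes are described in 3 sets. These rest on the contrasts that chose the genes, their borders are not sharp, and whether the sets differ was not tested. Snai2, Pou3f2 and Abca9 were about as low at 94 dB as at 105 dB, with 44.9%, 54.7% and 78.6% of their 70 dB level at 94 dB and 54.7%, 59.9% and 78.6% at 105 dB. Fzd10 and Ccdc170 were the closest of the 8 to their 70 dB level at 94 dB, at 83.2% and 88.0%, and stood at 55.7% and 59.4% at 105 dB. The remaining genes, Folh1, Pla2g3 and Tvp23a, stood at 65.1%, 76.5% and 76.8% at 94 dB and 56.2%, 58.4% and 57.5% at 105 dB. In whole-cochlea RNA fewer cells of a type and less RNA per cell cannot be told apart.

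**Figure D1:**
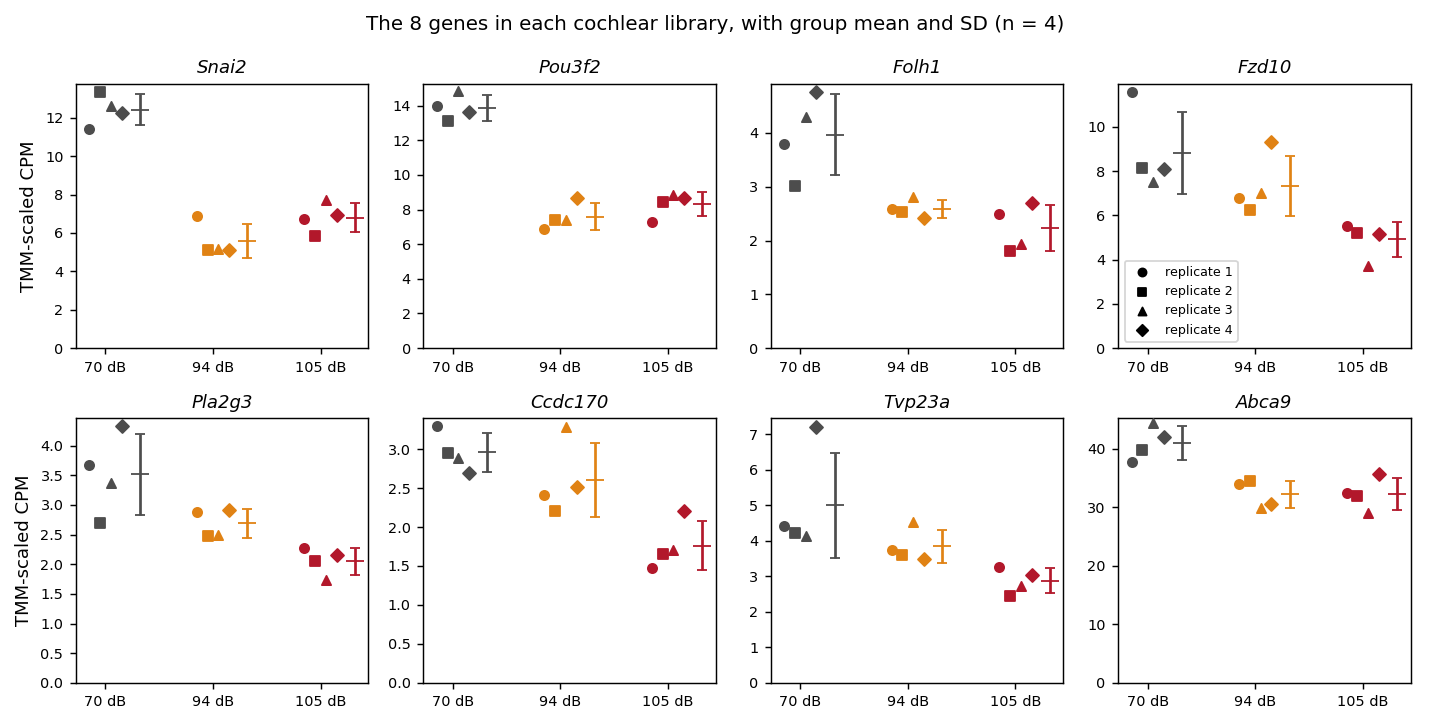
TMM-scaled CPM of the 8 genes in each library by noise level, with the group mean and SD (n = 4) to the right of the points; every axis starts at 0. All 105 dB points lie below all 70 dB points in each panel, and the 94 dB points do so for Snai2, Pou3f2, Folh1 and Abca9.

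Snai2 (ENSMUSG00000022676, chr16:14705852-14709385, plus strand, GRCm38, 3 exon blocks) had the largest reduction of the 8 at 94 dB. In the 70 dB libraries, replicates 1 to 4, it stood at 11.4, 13.3, 12.6 and 12.3 CPM, a unit of counts scaled to library size with TMM factors. At 94 dB the values were 6.89, 5.10, 5.17 and 5.12 CPM, and at 105 dB 6.71, 5.85, 7.69 and 6.92 CPM. The noise libraries of both levels overlap each other and none comes near the control libraries. The means were 12.4 ± 0.807, 5.57 ± 0.879 and 6.79 ± 0.758 CPM (SD, n = 4). The log2 fold change against 70 dB was -1.16 ± 0.12 (SE) at 94 dB and -0.87 ± 0.12 at 105 dB.

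The other Snail, ZEB and TWIST repressors and genes of epithelial-mesenchymal transition did not share one direction. Of 27 tested, 4 rose and 7 fell at 94 dB and none passed at 105 dB, with medians of -0.054 and -0.0073. Its closest relative Snai1, named after its values were seen, averaged 12.7, 16.9 and 14.6 CPM at 70, 94 and 105 dB and rose at 94 dB (log2 fold change 0.41 ± 0.10, edgeR adjusted p = 0.00530), opposite in sign to Snai2. That call was lost with GC and length trends removed (0.09, adjusted p = 0.584) and without 94 dB replicates 3 and 4. Twist1, a mesenchymal transcription factor, rose at 94 dB from 43.7 to 66.5 CPM (log2 0.61 ± 0.08, edgeR adjusted p = 0.000131), while N-cadherin (Cdh2) fell from 55.5 to 41.8 CPM (-0.41 ± 0.07, adjusted p = 0.000620). Both calls held under every alternative run.

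Among 17 tested transcription factors and receptors of neural crest and melanocytes, the lineage in which Snai2 is best known, 3 rose and 3 fell at 94 dB and 0 rose and 2 fell at 105 dB. Sox9 fell at both levels, from 87.3 ± 1.10 CPM at 70 dB to 66.3 ± 3.59 at 94 dB and 57.2 ± 3.59 at 105 dB (SD, n = 4). Its log2 fold changes were -0.40 (edgeR adjusted p = 0.000422) and -0.61 (adjusted p = 2.27e-05), kept under every alternative. Foxd3, the other call at 105 dB and named after its values were seen, had 7.71 and 4.61 CPM at 70 and 105 dB (edgeR adjusted p = 0.0488). It was lost in 11 of 22 alternatives, where the adjusted p reached 0.179, and leaving out any 1 of 9 single libraries was enough. Id3 and Id1, inhibitors of helix-loop-helix factors, rose at 94 dB (log2 0.68 and 0.61, edgeR adjusted p = 0.000964 and 0.00175).

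Pou3f2 (ENSMUSG00000095139, chr4:22482780-22488366, minus strand, 1 exon) read 14.0, 13.1, 14.9 and 13.6 CPM in the control libraries. It read 6.89, 7.41, 7.41 and 8.68 CPM at 94 dB and 7.31, 8.46, 8.85 and 8.67 CPM at 105 dB. Its noise libraries all lie far under the lowest control library, and the ranges at 94 and 105 dB overlap. Mean levels were 13.9 ± 0.752, 7.60 ± 0.763 and 8.32 ± 0.695 CPM (SD, n = 4), and the log2 fold changes were -0.87 ± 0.10 (SE) and -0.74 ± 0.10.

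Promoter windows from RefSeq (GRCm38.p6, 250 bases before to 50 bases after a start site) were matched for 5 of the 8 genes, with 6 windows. They are shown for 4 of these genes, taken from the sets above. Pou3f2 and Abca9 were about as low at 94 as at 105 dB. Ccdc170 (second annotated start) was low mainly at 105 dB, and Folh1 is from the remaining set. The sets rest on values that chose the genes. Only bases outside annotated exons are printed, 5′ to 3′ on the gene's strand, and capitals mark the motifs that were searched.
Pou3f2, chr4:22488367-22488616, minus strand: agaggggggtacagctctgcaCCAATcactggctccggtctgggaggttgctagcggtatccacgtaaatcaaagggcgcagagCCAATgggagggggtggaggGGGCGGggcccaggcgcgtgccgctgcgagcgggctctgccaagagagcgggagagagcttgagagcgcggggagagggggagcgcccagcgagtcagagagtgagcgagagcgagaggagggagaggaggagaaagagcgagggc
Folh1, chr7:86775944-86776114, minus strand: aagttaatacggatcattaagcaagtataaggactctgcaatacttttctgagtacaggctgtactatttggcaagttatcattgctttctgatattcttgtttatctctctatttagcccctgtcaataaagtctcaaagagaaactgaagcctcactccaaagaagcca
Abca9, chr11:110168197-110168403, minus strand: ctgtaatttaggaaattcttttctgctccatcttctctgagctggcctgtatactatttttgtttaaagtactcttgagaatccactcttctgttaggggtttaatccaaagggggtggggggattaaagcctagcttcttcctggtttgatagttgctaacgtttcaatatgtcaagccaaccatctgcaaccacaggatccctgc
Ccdc170, chr10:4509622-4509871, plus strand: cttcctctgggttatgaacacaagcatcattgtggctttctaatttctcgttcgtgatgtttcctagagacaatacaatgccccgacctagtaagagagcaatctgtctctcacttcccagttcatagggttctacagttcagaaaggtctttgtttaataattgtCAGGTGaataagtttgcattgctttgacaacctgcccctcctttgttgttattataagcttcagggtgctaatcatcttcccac

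The motifs searched on both strands were the E-box of Snail and ZEB repressors (CACCTG), the cAMP response element (TGACGTCA), the AP-1 site (TGANTCA), the octamer of POU factors (ATGCAAAT), the TATA box (TATAAA), the CCAAT box (CCAAT) and the GC box (GGGCGG). The printed Pou3f2 bases hold CCAAT at positions -229 and -166 from the start and a GC box at -146, where 37.4% and 35.7% of all 32851 RefSeq windows of 300 bases hold these motifs. More GC boxes of Pou3f2 lie around its start, in bases not printed. The Ccdc170 bases, from its second start, hold the E-box, as CAGGTG, at -84, which 20.2% of all windows have. The other Ccdc170 window, at its first annotated start and not printed, holds none of the searched motifs. None of the searched motifs is in the printed Folh1 bases, but its window holds CCAAT (as ATTGG) at -49 and a GC box at -22 in exon bases that are not printed. The Abca9 window holds none of them, and no window of the 5 genes held the cAMP element, the AP-1 site, the octamer or the TATA box (1.79%, 7.81%, 1.74% and 13.6% of all windows). Fzd10 was also matched, with a GC box at -72, but its window lies within an exon. Snai2, Pla2g3 and Tvp23a were not matched.

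Of 11 other POU factors tested, 1 rose and 1 fell at 94 dB and 1 fell at 105 dB. Of all tested genes 26.1% and 1.62% passed in these contrasts. The gene that fell at both levels was Pou3f4, a relative of Pou3f2 known for its role in the mesenchyme of the inner ear, with 75.6 ± 8.21, 58.9 ± 2.42 and 49.2 ± 7.15 CPM at 70, 94 and 105 dB (SD, n = 4). Its log2 fold change at 105 dB was -0.62 (edgeR adjusted p = 0.00207), kept under every alternative, and at 94 dB -0.36 (adjusted p = 0.0124), which was lost without 94 dB replicates 3 and 4 (adjusted p = 0.0913). Pou3f1 rose at 94 dB from 19.3 to 25.7 CPM (edgeR adjusted p = 0.0414), a call lost in 9 of 22 alternatives, among them each of the settings without 70 dB replicate 2 or 4 or 94 dB replicate 1, 3 or 4. Pou3f3 averaged 84.2, 86.4 and 69.6 CPM and passed in neither contrast with 70 dB.

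Fzd10 (ENSMUSG00000081683, chr5:128600844-128604093, plus strand, 1 exon) was low mainly at the higher noise level. Its control libraries had 11.6, 8.14, 7.52 and 8.09 CPM, and the 94 dB libraries 6.80, 6.24, 7.0 and 9.33 CPM. At 105 dB the values were 5.54, 5.23, 3.73 and 5.17 CPM. The 94 dB libraries lie among and just under the controls, replicate 4 above 3 of them, whereas the 105 dB libraries lie under every other library. Group means were 8.83 ± 1.85, 7.34 ± 1.36 and 4.92 ± 0.805 CPM (SD, n = 4), and the log2 fold changes against 70 dB were -0.27 ± 0.16 (SE) and -0.84 ± 0.17. The value at 94 dB was -0.10 without 70 dB replicate 1 and -0.40 without 94 dB replicate 4.

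Frizzled receptors differed in sign among themselves. In a list of 65 tested frizzled and Wnt pathway genes, 9 rose and 13 fell at 94 dB and 2 rose and 4 fell at 105 dB, with medians of -0.019 and -0.087. Fzd9 rose at both levels, from 62.3 CPM at 70 dB to 105 at 94 dB and 88.7 at 105 dB (log2 0.75 and 0.51, edgeR adjusted p = 4.19e-05 and 0.00459). Dkk1, a secreted Wnt inhibitor, fell at both, from 30.8 to 18.6 and 21.6 CPM (log2 -0.73 and -0.51, edgeR adjusted p = 5.59e-05 and 0.00450), and Wnt5a fell at 94 dB from 131.7 to 98.8 CPM (-0.41, adjusted p = 0.000341). These calls held under every alternative, whereas the fall of Wnt5a at 105 dB (-0.28, edgeR adjusted p = 0.0318) was lost in 7 of 22, among them without 70 dB replicate 1, 3 or 4 and without 105 dB replicate 1, 2 or 3.

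The other calls at 105 dB in that list are named after their values were seen. Fzd4 rose from 31.5 to 43.1 CPM (log2 0.45, edgeR adjusted p = 0.00198), under every alternative. Fzd6 fell from 27.5 to 20.8 CPM (-0.40, edgeR adjusted p = 0.0145), a call lost without 70 dB replicate 1 or 105 dB replicate 2. Wnt16 fell from 7.69 to 5.20 CPM (-0.56, edgeR adjusted p = 0.0253), which was lost in 6 of 22 alternatives, among them without 70 dB replicate 1 or 4 and without 105 dB replicate 2, 3 or 4.

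**Figure D2:**
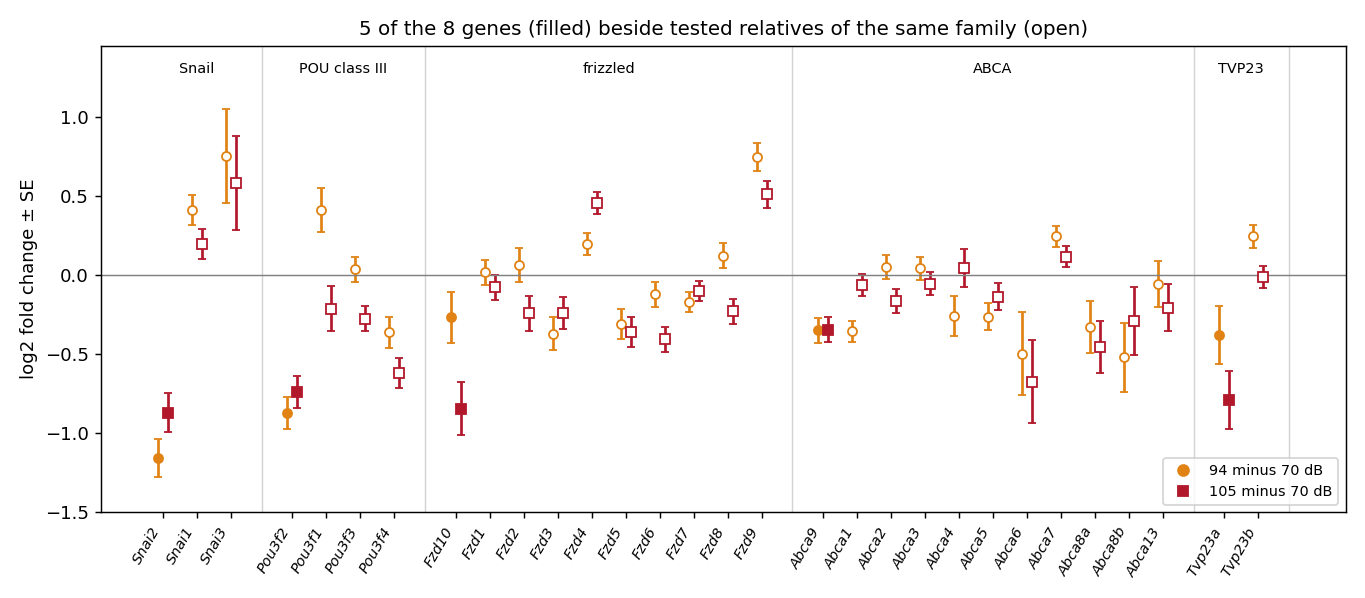
Log2 fold change against 70 dB with its SE for 5 of the 8 genes (filled) and the tested relatives of each family (open), at 94 dB (circles) and 105 dB (squares). At 94 dB Snai2 lies at -1.16 ± 0.12 (SE) and Fzd10 at -0.27 ± 0.16. These contrasts chose the filled genes, so their values are a description with no test. Relatives lie on both sides of zero. Snai1 at 0.41 (0.09 with GC and length trends removed) and Fzd9 at 0.75 are among those above it. Fzd3 at -0.37, Fzd5 at -0.31, Pou3f4 at -0.36 and Abca1 at -0.36 are among those below it.

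Folh1 (ENSMUSG00000001773, chr7:86718977-86775943, minus strand, 19 exon blocks) was lower in all 8 noise libraries than in any control. The 70 dB libraries held 3.79, 3.02, 4.29 and 4.77 CPM. Those at 94 dB held 2.59, 2.52, 2.81 and 2.41 CPM, and those at 105 dB 2.49, 1.80, 1.93 and 2.69 CPM. The gap between the lowest control, replicate 2, and the highest noise library is narrow, and the noise groups overlap. Means were 3.97 ± 0.748, 2.58 ± 0.167 and 2.23 ± 0.429 CPM (SD, n = 4), with log2 fold changes of -0.62 ± 0.18 (SE) and -0.82 ± 0.18. In a list of 17 tested genes for NAAG and folate handling, 3 rose and none fell at 94 dB, and 0 passed at 105 dB. Nat8l, the enzyme that makes N-acetylaspartate, rose at 94 dB from 149.7 to 184.2 CPM (log2 0.30, edgeR adjusted p = 0.00723), a call lost with GC and length trends removed (adjusted p = 0.184) and without 94 dB replicates 3 and 4. The folate genes Mthfd1 and Fpgs also rose at 94 dB (edgeR adjusted p = 0.0403 and 0.0489), and were lost in 11 and 15 of 22 alternatives, among them without any 1 of 70 dB replicates 2 to 4 and 94 dB replicates 2 to 4.

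Pla2g3 (ENSMUSG00000034579, chr11:3488284-3499350, plus strand, 8 exon blocks) was measured at 3.68, 2.69, 3.38 and 4.33 CPM in the controls. Its 94 dB values were 2.88, 2.47, 2.49 and 2.92 CPM, and its 105 dB values 2.27, 2.05, 1.74 and 2.15 CPM. The 94 dB group overlaps only the lowest control, replicate 2, and the 105 dB group lies under both others. The means of 3.52 ± 0.681, 2.69 ± 0.244 and 2.05 ± 0.228 CPM (SD, n = 4) gave log2 fold changes of -0.38 ± 0.17 (SE) at 94 dB and -0.77 ± 0.17 at 105 dB. Its exons share 401 bases (8.54% of its exon length) with Inpp5j on the opposite strand, and since the use of strand in counting is not given in the sources used here, reads there cannot be assigned and its values are uncertain. Inpp5j averaged 31.4, 36.1 and 30.6 CPM and passed in neither contrast with 70 dB.

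Of 25 other phospholipase A2 and eicosanoid genes tested, 7 rose and 1 fell at 94 dB, where their median log2 fold change was 0.087, and 0 passed at 105 dB. The lysosomal phospholipase Pla2g15 rose from 36.3 to 46.3 CPM (log2 0.35, edgeR adjusted p = 0.000585) and Pla2g12a from 16.7 to 21.8 CPM (0.38, adjusted p = 0.00290). Alox5ap, which presents arachidonic acid to 5-lipoxygenase, rose from 29.4 to 43.6 CPM (0.57, edgeR adjusted p = 0.00518). These 3 calls held under every alternative.

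Abca9 (ENSMUSG00000041797, chr11:110100749-110168196, minus strand, 39 exon blocks) was the best counted of the 8, with 901 to 1685 counts per library. It read 37.8, 39.7, 44.4 and 42 CPM at 70 dB. The 94 dB libraries read 33.9, 34.5, 29.9 and 30.5 CPM and the 105 dB libraries 32.4, 31.9, 29.0 and 35.6 CPM. No noise library reaches the lowest control, and the noise levels cover the same range. Its means of 41.0 ± 2.86, 32.2 ± 2.31 and 32.2 ± 2.72 CPM (SD, n = 4) correspond to log2 fold changes of -0.35 ± 0.08 (SE) at both levels, the smallest of the 8 at 105 dB. With GC and length trends removed the value at 94 dB was -0.17.

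Of 10 other ABCA transporters tested, 1 rose and 2 fell at 94 dB and 0 passed at 105 dB, with medians of -0.26 and -0.15. The cholesterol exporter Abca1 fell at 94 dB from 61.3 to 47.9 CPM (log2 -0.36, edgeR adjusted p = 0.00166) under every alternative. Abca7 rose at 94 dB (log2 0.25, edgeR adjusted p = 0.0119) and Abca5 fell (-0.26, adjusted p = 0.0315). The Abca7 call was lost with GC and length trends removed and without 94 dB replicates 3 and 4, and that of Abca5 in 9 of 22 alternatives, in 2 of which its sign turned. The neighbours of Abca9 in its gene cluster, Abca8a at 4.77 kb and Abca6 at 8.623 kb, had lower means after noise. Abca8a averaged 51.9 ± 14.9, 41.4 ± 5.44 and 37.9 ± 3.44 CPM and Abca6 1.62 ± 0.598, 1.15 ± 0.214 and 1.02 ± 0.0565 CPM (SD, n = 4), and neither passed (edgeR adjusted p from 0.168 to 0.189 against 70 dB).

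Tvp23a (ENSMUSG00000050908, chr16:10420557-10447362, minus strand, 9 exon blocks) had 1 control library far above the rest. The controls read 4.43, 4.22, 4.15 and 7.22 CPM. At 94 dB it read 3.74, 3.61, 4.54 and 3.48 CPM, and at 105 dB 3.27, 2.46, 2.74 and 3.04 CPM. Replicate 3 at 94 dB lies above 3 of the 4 controls, and all 105 dB libraries lie below all others. Mean levels were 5.0 ± 1.48, 3.84 ± 0.477 and 2.88 ± 0.354 CPM (SD, n = 4), and the log2 fold changes -0.38 ± 0.18 (SE) and -0.79 ± 0.18. Without 70 dB replicate 4 the value at 94 dB was -0.14 and that at 105 dB -0.56. A stretch of 1341 exon bases, 33.8% of its exon length, is shared with Nubp1 on the opposite strand, so its values are uncertain. Nubp1 averaged 13.1, 16.1 and 12.8 CPM and rose at 94 dB (log2 0.31, edgeR adjusted p = 0.0256), a call lost without 70 dB replicate 2, without 94 dB replicate 3 or 4 and with GC and length trends removed (adjusted p up to 0.314).

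Among 16 other Golgi genes, those of the TVP23 and YIP groups with further Golgi proteins such as Rabac1, Surf4 and Gorasp1, 7 rose and 2 fell at 94 dB and 0 passed at 105 dB. The paralogue Tvp23b, named after its values were seen, rose at 94 dB from 46.9 to 55.6 CPM (log2 0.25, edgeR adjusted p = 0.0190), which was lost without 94 dB replicates 3 and 4 (adjusted p = 0.0784), and stood at 46.5 CPM at 105 dB. Yipf3 and Yipf4 rose at 94 dB (log2 0.44 and 0.24, edgeR adjusted p = 0.00120 and 0.00631) under every alternative. Yipf6 fell (-0.41, edgeR adjusted p = 0.00250), a call lost with GC and length trends removed and without 94 dB replicates 3 and 4.

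Ccdc170 (ENSMUSG00000019767, chr10:4482502-4562231, plus strand, 14 exon blocks) was covered by 53 to 141 counts per library. Its values were 3.30, 2.95, 2.89 and 2.70 CPM at 70 dB and 2.41, 2.20, 3.28 and 2.52 CPM at 94 dB. At 105 dB they were 1.47, 1.65, 1.71 and 2.21 CPM. The 94 dB libraries overlap the controls, replicate 3 just under the top control, and replicate 4 at 105 dB sits level with the lowest 94 dB library. Group means were 2.96 ± 0.252, 2.60 ± 0.469 and 1.76 ± 0.315 CPM (SD, n = 4), with log2 fold changes of -0.19 ± 0.18 (SE) and -0.75 ± 0.18. Without 94 dB replicate 2 the value at 94 dB was -0.11, and without replicate 3 -0.32. Esr1, the oestrogen receptor gene 49.361 kb further along, averaged 12, 9.69 and 12.4 CPM and fell at 94 dB (edgeR adjusted p = 0.0382), which was lost in 13 of 22 alternatives, among them without 70 dB replicate 1, 2 or 4 and without 94 dB replicate 2, 3 or 4.

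Between 105 and 94 dB, 2 of the 8 genes passed the test and both fell: Fzd10 by a log2 fold change of -0.58 ± 0.17 (SE, edgeR adjusted p = 0.0271) and Ccdc170 by -0.56 ± 0.18 (adjusted p = 0.0420). Of all tested genes 17.3% passed in this contrast, 9.23% as lower. Since the choice of genes can shift this contrast, nothing is read from the count of 2 of 8. Fzd10 was lower in 4 of 4 libraries at 105 dB than in any at 94 dB and Ccdc170 in 3 of 4. Neither call held under every alternative, and without 94 dB replicates 3 and 4 the adjusted p was 0.294 for Fzd10 and 0.377 for Ccdc170. Fzd10 was also lost without 94 dB replicate 3 (0.0559) or 4 (0.109), without 105 dB replicate 2, 3 or 4 (0.0517, 0.0700 and 0.0555), and with GC and length trends removed (0.114, with the replicate block 0.0755). Ccdc170 was also lost without 94 dB replicate 3 (0.159) or 4 (0.0805), without 105 dB replicate 1, 2 or 3 (0.113, 0.103 and 0.0716), without 70 dB replicate 2 (0.0533), with no filter on low counts (0.0837), in a fit of the 8 libraries compared (0.0641), with the replicate block (0.0594) and with the block and the trends removed (0.0634).

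The other 6 genes did not pass at 105 against 94 dB. Snai2 was higher at 105 dB by 0.29 on the log2 scale (95% interval 0.03 to 0.55, edgeR adjusted p = 0.122), and passed without 94 dB replicate 1 (0.40, adjusted p = 0.0265). Abca9 differed by 0.0017 (95% interval -0.17 to 0.17, edgeR adjusted p = 0.991). Pou3f2 differed by 0.13 (interval -0.09 to 0.35) and Folh1 by -0.21 (interval -0.59 to 0.18). Pla2g3 and Tvp23a differed by -0.39 and -0.41 (edgeR adjusted p = 0.136 and 0.139), and in both all 4 libraries at 105 dB lay under all 4 at 94 dB. With Fzd10 that makes 3 of 8 genes with no overlap, against 10.8% of all tested genes, and nothing is read from this count either. The genes that share exon bases with Pla2g3 and Tvp23a, Inpp5j and Nubp1, fell in this contrast too (log2 -0.24 and -0.33, edgeR adjusted p = 0.0340 and 0.0250). These calls were lost in 9 and 7 of 22 alternatives (adjusted p up to 0.285 and 0.344), among them the fits without 94 dB replicate 3 or 4.

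**Figure D3:**
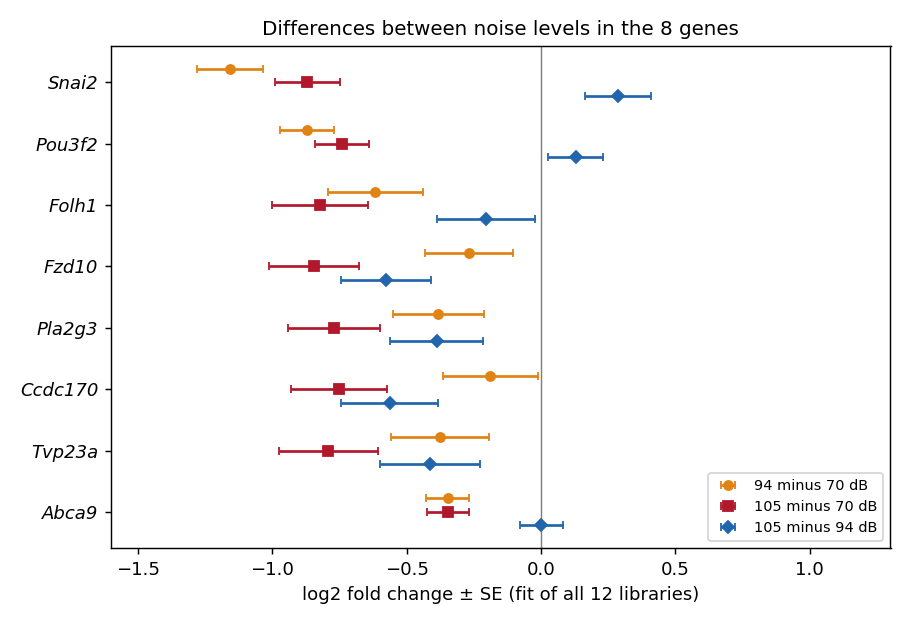
Log2 fold change with its SE for the 8 genes in the 3 contrasts between noise levels, from the fit of all 12 libraries. The contrast of 105 with 94 dB runs from -0.58 in Fzd10 to 0.29 in Snai2 and is near 0 in Abca9.

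The rule did not use abundance, length or sequence. Per kilobase of exon, mean levels at 70 dB were 6.14 CPM for Snai2, 5.09 for Abca9, 2.72 for Fzd10, 2.49 for Pou3f2, 1.26 for Tvp23a, 1.24 for Folh1, 0.780 for Ccdc170 and 0.749 for Pla2g3. In this order Tvp23a and Folh1 differ by less than either SD (0.373 and 0.233), as do Ccdc170 and Pla2g3 (0.0665 and 0.145). Fzd10 and Pou3f2 differ by less than the SD of Fzd10 (0.568) and more than that of Pou3f2 (0.135). After noise Fzd10 had 2.26 and 1.51 CPM per kilobase and Pou3f2 1.36 and 1.49 at 94 and 105 dB. All but Abca9 lay below the median abundance of tested genes: the median of the mean log2 CPM was 2.35 over the 8 and 4.12 over all. Exon length had a median of 3882 bases against 3723, and GC content 46.4% against 49.6%. The motif ATTTA, found in unstable transcripts, was in the 3′ UTR of 6 of the 8 (not Pla2g3 and Tvp23a) and of 67.8% of the 15906 genes with an annotated 3′ UTR. The 8 lie on 6 chromosomes. Of the 16 nearest tested protein-coding neighbours, 1 rose and 2 fell at 94 dB and 0 passed at 105 dB.

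Once group means were removed from log2 CPM, Pearson's r over the 12 libraries ran from -0.50 (Snai2 and Fzd10) to 0.71 (Folh1 and Tvp23a) over the 28 pairs, with a median of 0.029 and 16 pairs above 0. The higher values joined Folh1, Tvp23a and Pla2g3, with 0.67 for Folh1 and Pla2g3 and 0.55 for Pla2g3 and Tvp23a. Replicate 4 at 105 dB was above its group mean in 8 of 8 genes, and replicate 2 at 70 dB and replicate 2 at 94 dB in 1 of 8 each. The points share library, depth and scaling, so these values are a description.

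**Figure D4:**
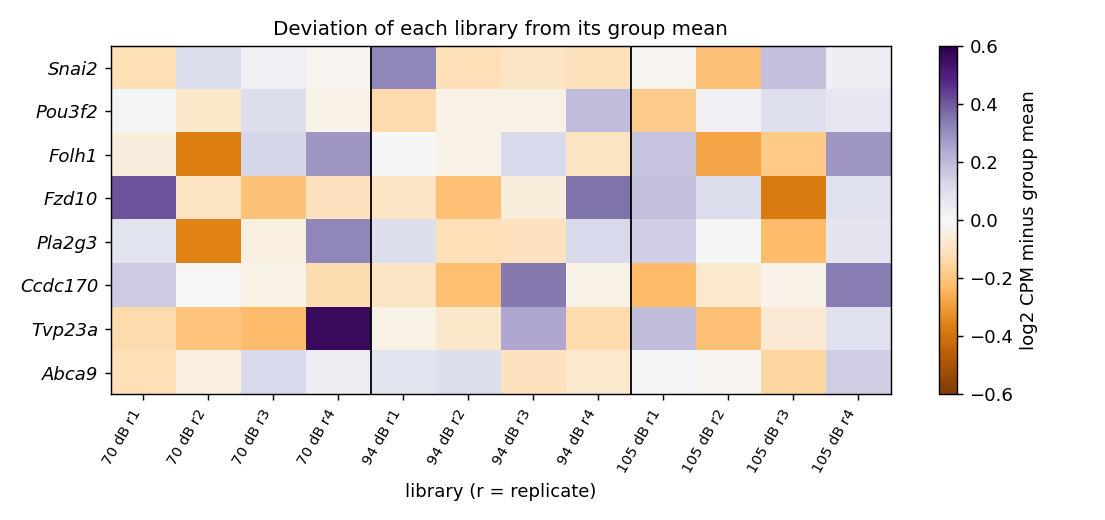
Deviation of each library's log2 CPM from its group mean for the 8 genes (rows) in 12 libraries (columns, split by noise level), on a colour scale from -0.6 to 0.6. The largest block of shared sign is 105 dB replicate 4, above its mean in 8 of 8 genes.

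For each gene the 2 genes with the highest Pearson's r of log2 CPM over the 12 libraries were taken (1 is given for Ccdc170), where differences between groups and library effects both count and no test was made. Snai2 was closest to Tbx18, a transcription factor of otic fibrocytes (r = 0.970), and Dkk1 (0.962). Pou3f2 was closest to Fam198b (0.936) and Slc1a3, a glial glutamate transporter (0.932), and Folh1 to Gjc3, a glial connexin (0.961), and Gulp1 (0.947). Fzd10 lay closest to Vps39 (0.940) and Mtmr11 (0.929), Pla2g3 to Ptprn2 (0.941) and Igsf11 (0.937), and Ccdc170 to Lif (0.942). Tvp23a had Phactr1 (0.959) and Dnajc6 (0.957), and Abca9 had Zfp617 (0.950) and Ptprq (0.947). Tbx18 averaged 72.8 ± 1.73, 49.8 ± 2.02 and 54.9 ± 3.95 CPM (SD, n = 4), a description, since likeness to Snai2 chose it.

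Some markers of fibrocytes and glia also fell after noise. Of all tested genes, 12.2% passed as lower at 94 dB and 0.508% at 105 dB. Of 12 markers of fibrocytes and fibroblasts, 1 rose and 6 fell at 94 dB (median -0.31) and 1, Tbx18, fell at 105 dB (median -0.10). The marker that rose, named after its values were seen, was Otos. It averaged 826 ± 66.0 CPM at 70 dB and 1633 ± 568 CPM at 94 dB (SD, n = 4). The summed level of the 12 markers spanned 15950 to 18174, 15182 to 16197 and 16608 to 17608 CPM at 70, 94 and 105 dB. Of 14 markers of Schwann cells and satellite glia, 4 fell at 94 dB (median -0.37), among them Pmp22, Cdh19 and Erbb3, and 1, Foxd3, at 105 dB (median -0.45), named after their values were seen. Erbb3 kept its call under every alternative, the calls of Pmp22 and Cdh19 were lost without 94 dB replicates 3 and 4, and that of Cdh19 also without any 1 of 7 single libraries. The summed glial level spanned 5219 to 7128, 4409 to 5718 and 4520 to 5434 CPM. The part of these cells in the values of the 8 genes was not tested.

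Of 11 markers of ciliated cells 2 fell at 94 dB (median -0.41) and 0 passed at 105 dB. At 94 dB 12.2% of all tested genes passed as lower. The 2 genes are named after their values were seen. Ccdc39 kept its call under every alternative, and Hydin lost it without 94 dB replicates 3 and 4 (edgeR adjusted p = 0.153). The ciliated cell markers summed to 122 to 188, 120 to 160 and 118 to 192 CPM at 70, 94 and 105 dB. Of 13 hair cell markers 0 passed in any contrast by edgeR, and the sum was 754 to 956, 849 to 1248 and 868 to 1070 CPM. Most of that sum is Pvalb, which is also on the list of spiral ganglion neuron markers. Pvalb averaged 551 ± 98.8, 695 ± 199 and 714 ± 105 CPM (SD, n = 4). The sum is therefore not read as the amount of hair cell RNA. Markers of blood cells moved upward at 94 dB, with 4 of 8 neutrophil and 4 of 8 macrophage genes higher, 0 and 1 lower. Of all tested genes 13.9% passed as higher at that level. Neutrophil markers summed to 7858 to 9716, 8015 to 15653 and 8654 to 10239 CPM and macrophage markers to 440 to 515, 546 to 655 and 473 to 527 CPM. Markers of every cell type listed were present, with none at 0 in all libraries. Over all pathway and cell type lists, 108 entries passed at 94 dB and 43 without 94 dB replicates 3 and 4, and 14 passed at 105 dB.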

How the data were processed

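The authors deposited 1 table of raw read counts, whole numbers for 35496 Ensembl genes in 12 libraries, with no normalisation. CASAVA, STAR and featureCounts 1.5.0-p3 are the tools in the submitters' processing notes, with mm10 as the build. How strand, multiple alignments and the gene annotation were handled in counting is not given in the sources used here. Sample titles supplied the groups and the replicate numbers. The labels' protocols give TRIzol extraction and TruSeq libraries.

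Positions, exon lengths and symbols are from GENCODE M21 on GRCm38, where 35474 genes had a symbol. Counts were tested with edgeR 4.0.16 in R 4.3.3. The filter filterByExpr with a minimum count of 10 kept 19497 genes, which held 99.9% of counts. TMM factors scaled the libraries. The model had a mean per noise level over the 12 libraries, 9 residual degrees of freedom and a common biological variation coefficient of 0.133, was fitted by glmQLFit and tested by glmQLFTest. Adjustment of p-values followed Benjamini-Hochberg over all tested genes, with a threshold of 0.05. CPM values are TMM-scaled, and log2 CPM used a prior count of 2. The procedure was tested on simulated data. In none of the 66 pairs of libraries did the counts agree within sampling noise (chi-square per degree of freedom at least 12.1).

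The 8 genes and all lists (8 pathway, 17 cell type) were chosen with earlier results of these data known. Beside the 8, the text names the 3 genes with the smallest p in each pathway list, the 2 genes most alike in pattern to each of the 8, their nearest neighbours and the most abundant marker of each cell type, of which it prints those that matter most; genes named after their values were seen are said to be so. A few of these genes are not reported here. The alternatives were DESeq2 1.42.0 size factors and its Wald test, upper-quartile factors, no filter, 1 CPM in 4 libraries, only the 8 libraries compared, a replicate block, GC and exon length trends removed per library (mgcv 1.9.3) alone and with the block, each library left out, and 94 dB replicates 3 and 4 left out. Counts of the 8 genes whose groups do not overlap, with libraries left out, were added after seeing the data.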

Additional observations from a re-analysis of the deposited data

Results flagged for a closer look

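Of 24 groups of 4 libraries (8 genes at 3 noise levels), 3 held a library far from the others, with a gap to its nearest neighbour above Dixon's 95% critical value when divided by the group's range; chance alone flags about 1 group in 20. Snai2 read 6.89 CPM in 94 dB replicate 1, above the other 94 dB libraries. Fzd10 read 11.6 CPM in 70 dB replicate 1 and Tvp23a 7.22 CPM in 70 dB replicate 4, each above the other 70 dB libraries.

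Fzd10 and Ccdc170 passed edgeR's test between the noise levels, with log2 fold changes of 105 minus 94 dB of -0.58 and -0.56. The calls were lost in 8 and 11 of 22 alternatives, 5 and 6 of them with a single library left out. Both were lost when 94 dB replicates 3 and 4 were left out. The choice of genes can also shift this contrast.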

How the results depend on the processing

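Against 70 dB, the 8 genes were lower in all 176 alternative values at each noise level. These contrasts chose the genes and the alternatives reuse the same libraries, so that sign was largely fixed beforehand and supports nothing. At 94 dB 4 values moved by more than the spread between replicates, those of Pou3f2 (-0.71 and -0.72) and Abca9 (-0.17 and -0.17) with GC and length trends removed. The count of genes under every 70 dB library at 94 dB was 4, 4 to 6 with single libraries left out (6 without 94 dB replicate 3, 5 without 94 dB replicate 4 or 70 dB replicate 2) and 7 without 94 dB replicates 3 and 4. The 2 calls at 105 against 94 dB became 1 with no filter, with the 8 libraries compared, with the replicate block and with the trends removed, 0 with trends and block together and without 94 dB replicates 3 and 4, and 0 to 3 with single libraries left out (0 without 94 dB replicate 3 or 4 or 105 dB replicate 2 or 3, 1 without 70 dB replicate 2 or 105 dB replicate 1 or 4). Abca9 changed sign in that contrast with DESeq2 size factors (-0.0015), DESeq2's test (-0.0013), trends removed (-0.12, with the block -0.12) and without 94 dB replicates 3 and 4 (-0.085), and ran from -0.048 to 0.047 with single libraries left out. Abca5 turned at 94 dB to 0.026 with trends removed and 0.027 with the block added. The causes were not tested.

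Over all genes, the 5085 calls at 94 dB became 3127 with trends removed, 3388 with the block added and 1610 without 94 dB replicates 3 and 4 (3452 to 5409 with single libraries left out), and the list calls 108 became 43. The 316 calls at 105 dB became 523 with no filter, 479 with the replicate block, 738 with trends and block, 884 with DESeq2's test and 126 to 399 with single libraries left out. The 14 list calls there became 23, 25, 26 and 8 to 18 in the last 4 of these settings, lowest without 105 dB replicate 2. The 3372 calls at 105 against 94 dB became 1835 with trends removed, 1962 with the block added, 217 without 94 dB replicates 3 and 4 and 1650 to 3798 with single libraries left out, and the 69 list calls 45, 6 and 40 to 85 with trends removed, without those replicates and with single libraries left out, lowest without 94 dB replicate 3.

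The replicate numbers, which the replicate block also used, did not pair the libraries. Same-numbered libraries had correlations of deviations from -0.149 to 0.182 over 12 pairs, above 0.1 only in the 3 pairs of replicate 2 (0.109, 0.155 and 0.182). Of the 12 libraries, 4 correlated best with their own number. In the sample titles the codes of 105 dB replicates 3 and 4 carry other numbers, and replicate 3 is coded 4. Matched by code, 105 dB replicate 3 had correlations of 0.111 with 70 dB replicate 4 and 0.0378 with 94 dB replicate 4. A block by code was not tested. At 53 to 1685 counts per library, depth limits the less abundant genes.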
